A study of Mus musculus with 4 samples.

Results

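Metallothioneins are small cysteine-rich proteins that bind zinc and copper inside cells, and zinc transporters move the metal across membranes: proteins of the Slc39a (ZIP) family bring zinc into the cytosol, and proteins of the Slc30a (ZnT) family carry it out. The 6 genes described here are the metallothioneins Mt1 and Mt2, the importers Slc39a14 and Slc39a8, and the exporters Slc30a1 and Slc30a10, taken from 18193 genes with a named probe set. They were chosen by gene symbol: every probe set that the platform annotation gives to a member alone was taken, which made 13 probe sets of 45101 on the array, and the brightest by mean log2 signal over the 4 arrays stands for its gene. The members were put together with earlier values of the same comparison known, so their differences between the crosses are given as a description and carry no test.

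Liver RNA came from 4 male mice aged 9 months, raised on chow without intervention, in a series on nonalcoholic fatty liver disease. The AB6F1 group (n = 2) was bred from AJ dams and B6 sires. The B6AF1 group (n = 2) was bred from B6 dams and AJ sires, so both are first-generation hybrids of the same pair of inbred strains in opposite directions. Each slice of whole liver was hybridised to its own Affymetrix array, and every value below is the deposited MAS5 signal, a linear brightness scaled so that the trimmed mean of each array is 500. The source identifiers of the mice run in a separate block for each cross, so handling and cross cannot be told apart.

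The array medians were 78.0 and 75.9 in AB6F1, against 72.8 and 67.2 in B6AF1. Across genes, any pair of arrays had a Pearson correlation of log2 signal between 0.961 and 0.975. The arrays carried strong hepatocyte signal: albumin (Alb) read 40788 and 38514 in AB6F1, against 40357 and 48625 in B6AF1. With 2 arrays against 2, an exact permutation test of a single gene cannot give a p below 0.333.

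In liver, metallothionein genes are known to be induced by zinc, by glucocorticoids and by inflammatory cytokines such as interleukin-6. Zinc acts through the metal-responsive factor MTF-1, which binds short metal response elements in promoters. Slc30a1 is another known target of MTF-1, and Slc39a14 is the importer that interleukin-6 is known to induce in hepatocytes.

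The starts of Mt1, Mt2 and Slc30a1 are shown because these genes are known targets of MTF-1. They were chosen with the values of the comparison known, and any part of MTF-1 in it was not tested. Sequences are from RefSeq (GRCm38.p6), run 5′ to 3′ on the strand of the gene from 250 bases before to 50 bases after the annotated start, and lie at chr8:94178839-94179138, chr8:94172368-94172667 and chr1:191906531-191906830, all on the plus strand. Capitals mark matches on either strand to the core of the metal response element, searched as TGCACNC and TGCGCNC.
Mt1: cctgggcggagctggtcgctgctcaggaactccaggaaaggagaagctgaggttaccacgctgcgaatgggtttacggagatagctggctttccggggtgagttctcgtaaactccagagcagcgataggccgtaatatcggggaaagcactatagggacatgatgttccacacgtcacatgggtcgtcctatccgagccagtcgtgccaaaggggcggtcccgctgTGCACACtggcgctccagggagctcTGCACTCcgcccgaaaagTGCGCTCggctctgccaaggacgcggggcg
Mt2: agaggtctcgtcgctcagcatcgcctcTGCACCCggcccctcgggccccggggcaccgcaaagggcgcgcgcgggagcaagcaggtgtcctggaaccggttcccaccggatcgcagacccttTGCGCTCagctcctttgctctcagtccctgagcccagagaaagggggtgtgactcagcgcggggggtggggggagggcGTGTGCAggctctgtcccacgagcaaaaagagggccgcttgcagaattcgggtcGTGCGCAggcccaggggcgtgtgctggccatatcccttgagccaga
Slc30a1: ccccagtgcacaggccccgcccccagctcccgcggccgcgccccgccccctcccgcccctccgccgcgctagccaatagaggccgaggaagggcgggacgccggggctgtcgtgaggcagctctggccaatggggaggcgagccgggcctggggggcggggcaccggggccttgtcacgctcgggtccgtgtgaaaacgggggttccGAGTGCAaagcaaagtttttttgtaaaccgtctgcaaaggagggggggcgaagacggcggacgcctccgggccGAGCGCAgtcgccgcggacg

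The Mt1 window held 3 matches and the Mt2 window 4, none of them overlapping, while the Slc30a1 window held 2. Across all 32851 promoter windows of that length, TGCACNC occurred in 12.6% and TGCGCNC in 15.4%; 7.11% held at least 2 matches, 1.97% at least 3 and 0.517% at least 4. Slc30a10, the exporter of manganese, had 3 matches, of which an overlapping pair lay on opposite strands. The importer Slc39a8 had a single match in its second annotated window and none in its first, where no match says only that these letters are not in that window. Promoter matches are a description of sequence and were set against no measurement of binding. The sequences are of a reference genome, and the alleles carried by these hybrid mice were not read. The counts hold only for these windows at the annotated starts used. Sequence beyond them, such as that further than 50 bases after a start, was not searched. Whether liver uses other starts of these genes was not tested.

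**Figure D1:**
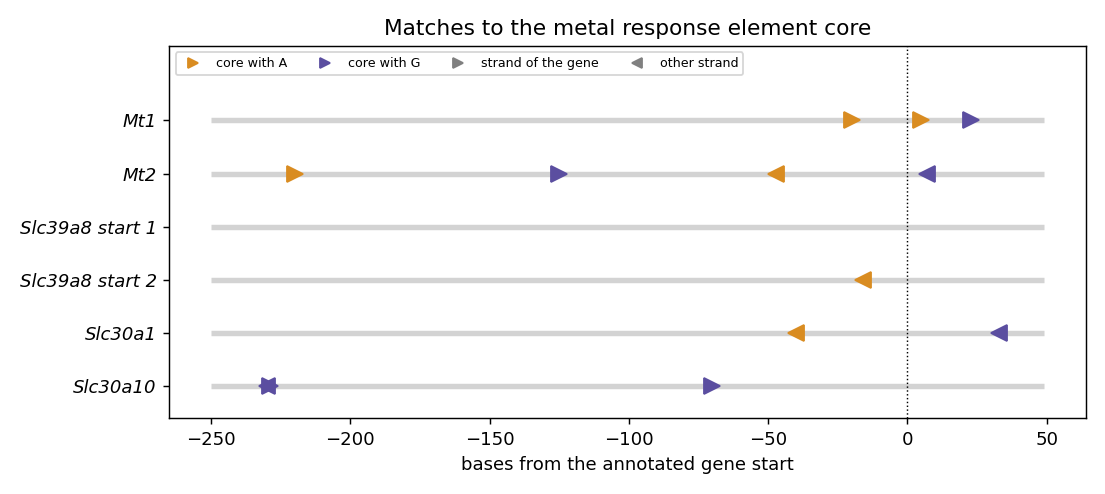
Positions of matches to the metal response element core in RefSeq promoter windows (x axis, bases from the annotated start; a row for each annotated window; triangles pointing right lie on the strand of the gene, those pointing left on the other strand). The Mt1 window holds 3 matches close to the annotated start used, the Mt2 window holds 4 spread over its length, and the first Slc39a8 window holds none. Sequence beyond the windows was not searched.

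Both metallothioneins read higher in AB6F1 livers, and they had the largest differences among the 6 genes. Mt1, on chromosome 8, had signals of 12834 and 3226 in AB6F1 replicates 1 and 2, against 684 and 3109 in B6AF1 replicates 1 and 2. The crosses did not overlap, but only just: AB6F1 replicate 2 exceeded B6AF1 replicate 2 by a factor of 1.04, whereas AB6F1 replicate 1 exceeded B6AF1 replicate 1 by 18.8. The log2 difference, AB6F1 minus B6AF1, was 2.14 ± 0.80 (limma SE, n = 2 each), a fold of 4.41.

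Mt2, which encodes the second hepatic metallothionein and is the gene next to Mt1 on the chromosome, read 5413 and 1632 in AB6F1, against 228 and 863 in B6AF1. Here the lower AB6F1 array exceeded the higher B6AF1 array by a factor of 1.89. The log2 difference was 2.75 ± 0.71 (limma SE, n = 2 each), a fold of 6.71. Because whole liver was measured, a change in the number of cells of a type and a change in RNA per cell cannot be told apart here or in any result below.

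The order of the 4 livers was the same for both genes: AB6F1 replicate 1 was highest, AB6F1 replicate 2 came next, B6AF1 replicate 2 followed and B6AF1 replicate 1 was lowest. Within AB6F1 the arrays differed by a factor of 3.98 for Mt1 and 3.32 for Mt2. Within B6AF1 the factor between replicate 2 and replicate 1 was 4.55 for Mt1 and 3.79 for Mt2. The replicate SD of log2 signal was 1.48 for Mt1 and 1.29 for Mt2, against a median of 0.19 over the 11749 tested genes. That spread between mice of one cross was larger than in 99.5% of tested genes for Mt1 and in 99.0% for Mt2.

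The size of the difference therefore moved with each array. Leaving out AB6F1 replicate 1 gave 1.15 for Mt1 and 1.88 for Mt2 on the log2 scale, and leaving out B6AF1 replicate 1 gave 1.05 and 1.78. Without AB6F1 replicate 2 the log2 differences were 3.14 for Mt1 and 3.61 for Mt2, and without B6AF1 replicate 2 they were 3.23 and 3.71. Both AB6F1 arrays exceeded both B6AF1 arrays in each gene, so leaving out an array could not turn the sign.

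The probe sets limit what can be said of Mt1 alone. Its bright probe set has the suffix _s_at, which marks probes shared by related transcripts, so Mt1 signal may include other metallothionein RNA. Its other probe set was dim, at 15.6 and 11.2 in AB6F1, against 26.8 and 16.9 in B6AF1, and its log2 difference of -0.69 had the opposite sign. These values lie below 60.9, the signal under which genes were not tested, so they set no size for a difference. Mt2 had a single probe set, with no such suffix.

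**Figure D2:**
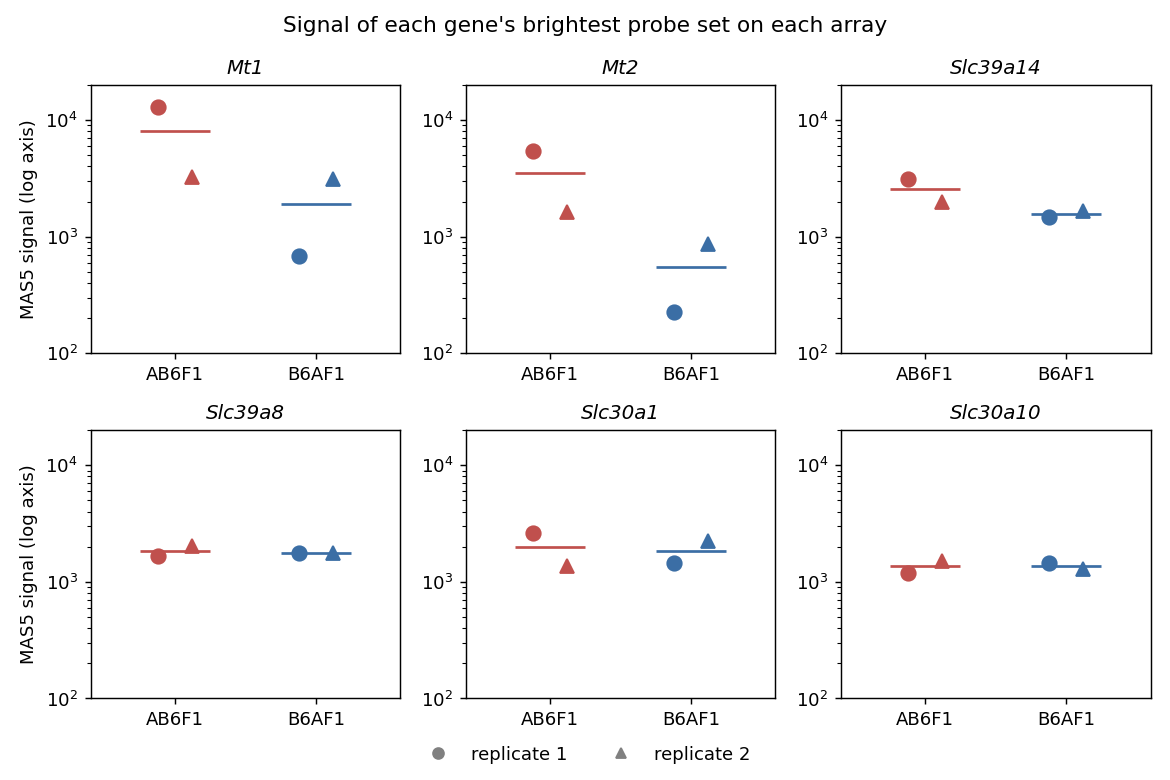
MAS5 signal (y axis, log scale) of the brightest probe set of each gene in AB6F1 and B6AF1 livers; points are arrays, circles replicate 1 and triangles replicate 2, and lines are arithmetic means of 2 arrays. Mt1 and Mt2 span the widest range, with AB6F1 replicate 1 at 12834 and 5413 and B6AF1 replicate 1 at 684 and 228, while Slc39a8 and Slc30a10 are nearly level.

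The importer Slc39a14 (ZIP14), which carries zinc and also iron and manganese into hepatocytes, read modestly higher in AB6F1. On chromosome 14, its brightest probe set read 3145 and 1976 in AB6F1, against 1473 and 1674 in B6AF1, with no overlap and with AB6F1 replicate 1 standing apart. The log2 difference was 0.67 ± 0.22 (limma SE, n = 2 each), a fold of 1.59.

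Other probe sets of Slc39a14 bear on its direction. A second read 473 and 426 in AB6F1, against 316 and 331 in B6AF1, a log2 difference of 0.47. Another read 259 and 286 in AB6F1, against 176 and 242 in B6AF1, a log2 difference of 0.40. In these probe sets too, both AB6F1 arrays were above both B6AF1 arrays, and the AB6F1 replicates lay close together. The fourth was dim and overlapped between the crosses, at 103 and 21.2 in AB6F1 and 115 and 41.2 in B6AF1. Without AB6F1 replicate 1 the log2 difference of the brightest probe set was 0.33. Leaving out AB6F1 replicate 2 gave 1.002, and leaving out B6AF1 replicate 1 or 2 gave 0.57 or 0.76.

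Slc39a8 (ZIP8), the closest relative of Slc39a14 and likewise a carrier of zinc and manganese, was level between the crosses on its brightest probe set. On chromosome 3, it read 1660 and 2027 in AB6F1, against 1781 and 1768 in B6AF1, and the B6AF1 arrays lay between those of AB6F1. The log2 difference was 0.05 ± 0.14 (limma SE, n = 2 each), and it became -0.09 when each array was centred on its median. The dimmer probe set of Slc39a8 read 224 and 282 in AB6F1, against 301 and 419 in B6AF1, so the crosses did not overlap there and the log2 difference was -0.50. The 2 probe sets of the gene therefore disagree, and no direction is given for it.

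**Figure D3:**
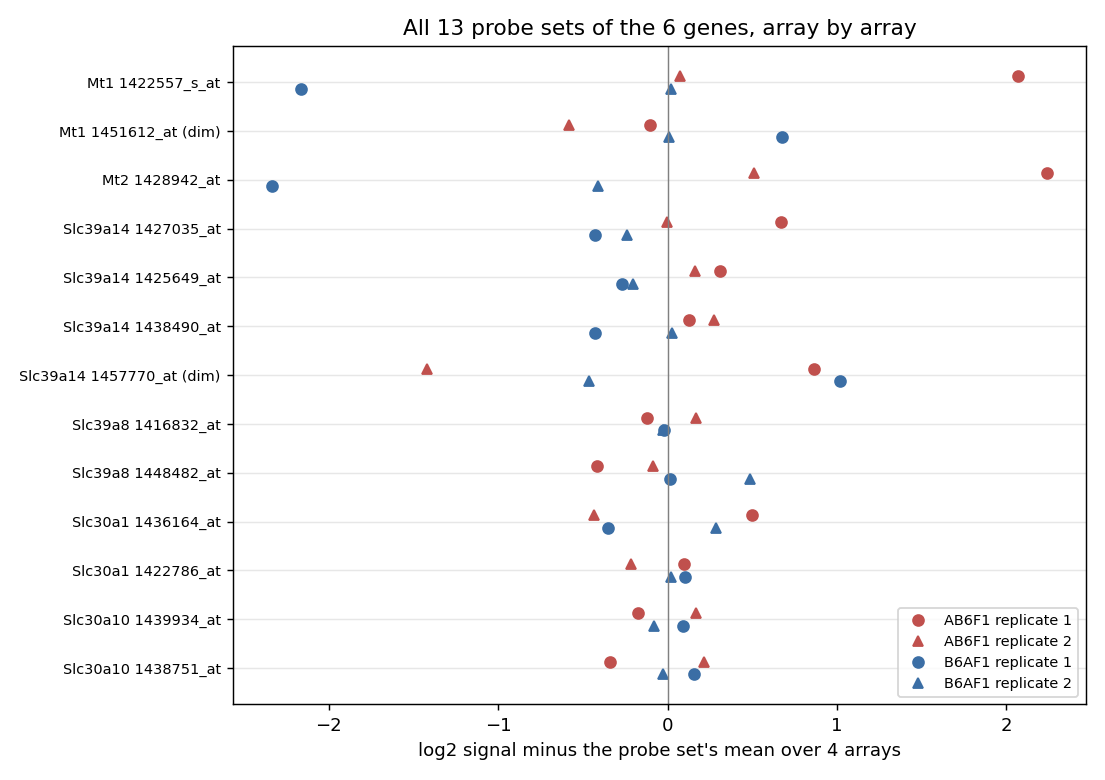
All 13 probe sets of the 6 genes (rows), as log2 signal on each array minus the probe set's mean over the 4 arrays (x axis); red is AB6F1 and blue B6AF1, circles are replicate 1 and triangles replicate 2, and "dim" marks probe sets with a mean below a signal of 60.9. The 3 brighter Slc39a14 probe sets place AB6F1 above B6AF1, with log2 differences from 0.40 to 0.67, whereas the dim probe sets of Mt1 and Slc39a14 do not follow their bright ones.

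In both exporters the arrays of the crosses overlapped. Slc30a1 (ZnT1), which exports zinc across the plasma membrane, read 2598 and 1365 in AB6F1, against 1446 and 2248 in B6AF1. The crosses overlapped, with the highest and the lowest array both in AB6F1, and the log2 difference was 0.06 ± 0.33 (limma SE, n = 2 each; -0.07 with arrays centred on their medians). Its replicate SD of 0.56 was larger than that of 89.9% of tested genes, and leaving out single arrays moved the difference between -0.40 and 0.53. The dimmer probe set of Slc30a1 read 474 and 380 in AB6F1, against 475 and 448 in B6AF1, a log2 difference of -0.12.

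Slc30a10 (ZnT10), known chiefly as a manganese exporter, also lies on chromosome 1. It read 1202 and 1520 in AB6F1, against 1442 and 1282 in B6AF1, with overlap and a log2 difference of -0.01 ± 0.16 (limma SE, n = 2 each). The dimmer probe set read 848 and 1244 in AB6F1, against 1193 and 1050 in B6AF1, and gave -0.12. Both probe sets placed AB6F1 replicate 2 highest and AB6F1 replicate 1 lowest.

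All 6 genes were bright enough to enter the fit over 11749 genes, but no test result is given for them. In Mt1, Mt2 and Slc39a14 both AB6F1 arrays lay above both B6AF1 arrays, as they did in 22.5% of tested genes. A log2 difference at least as large as that of Mt1 was found in 0.255% of tested genes, of Mt2 in 0.136%, and of Slc39a14 in 7.73%. The members were chosen with these values known, so nothing is read from these shares.

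**Figure D4:**
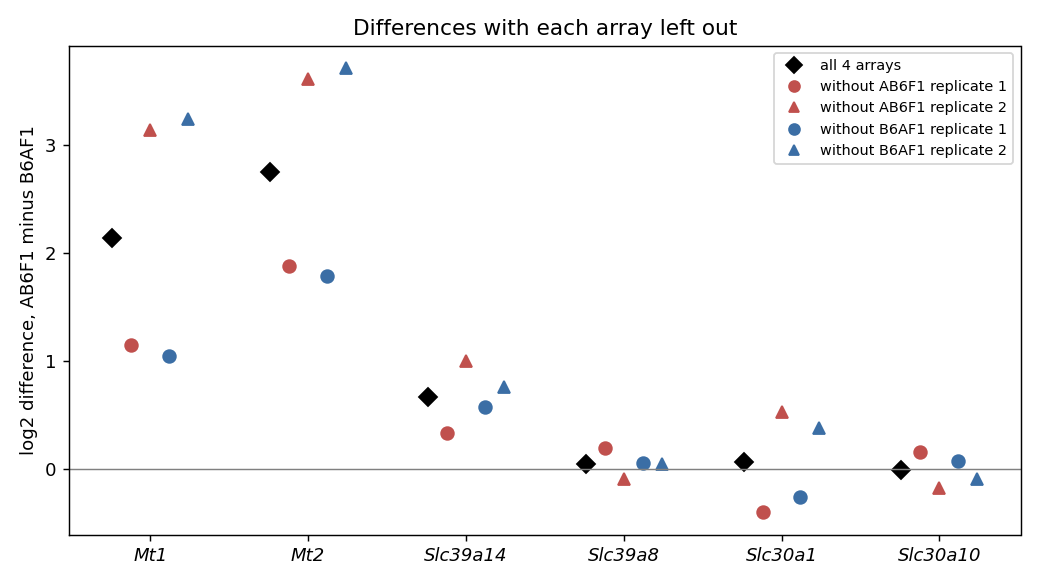
Log2 difference, AB6F1 minus B6AF1 (y axis), of each gene with all 4 arrays (black diamonds) and with each array left out in turn (red for an AB6F1 array left out, blue for a B6AF1 array; circles replicate 1, triangles replicate 2). Mt1 ranges from 1.05 to 3.23 and Mt2 from 1.78 to 3.71, whereas Slc39a8, Slc30a1 and Slc30a10 fall on both sides of 0.

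Profiles over the 4 arrays placed Mt1 and Mt2 beside each other. Every tested gene was centred on its own mean and compared by the root mean square difference over the 4 arrays. Mt2 was the nearest of 11748 other genes to Mt1, and Mt1 the nearest to Mt2, at 0.33 on the log2 scale. Mt1 was read by its _s_at probe set, which may include other metallothionein RNA, so these profiles may not be independent. For Mt1 the next were Crybb3 at 0.45, Egr1 at 0.45, Dbp at 0.55 and Dock2 at 0.55. Crybb3 read 18.3 in B6AF1 replicate 1 and Dock2 read 19.9 and 59.1 in the B6AF1 arrays, below 60.9, so the places of these genes in the order are uncertain. For Mt2 they were Lcn2 at 0.40, Egr1 at 0.49, Orm2 at 0.49 and Dbp at 0.51. Egr1, an immediate early transcription factor, read 4547 and 2716 in AB6F1, against 431 and 1624 in B6AF1, the same order of livers as for the metallothioneins. Lcn2, the secreted lipocalin of the acute phase, read 6539 and 1107 in AB6F1, against 158 and 497 in B6AF1. Dbp, near both Mt1 and Mt2, read 4103 and 2317 in AB6F1, against 464 and 1046 in B6AF1, again the same order of livers. Likeness over 4 arrays is a description, since many genes can share an order of 4 livers.

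Genes outside the 6 were tested with limma at a Benjamini-Hochberg adjusted p under 0.05 over all 11749 tested genes, where 0.213% passed and 0.136% passed with a higher AB6F1 level. At an unadjusted p under 0.05 the shares were 9.72% in either direction and 5.84% with a higher AB6F1 level. The remaining metallothioneins stand in a row with Mt2 and Mt1 on chromosome 8, in the order Mt4, Mt3, Mt2, Mt1, with no other protein-coding gene between them. Mt3, known chiefly from brain, read 16.6 and 58.8 in AB6F1, against 71.4 and 59.8 in B6AF1. Mt4, known from stratified epithelium, read 17.6 and 42.3 in AB6F1, against 55.3 and 31.3 in B6AF1. Both had mean log2 signals under the filter and were not tested. Mtf1, which encodes MTF-1, read 474 and 365 in AB6F1, against 417 and 409 in B6AF1, a log2 difference of 0.01 ± 0.20 (limma adjusted p = 0.991).

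Of the other 12 importers of the Slc39a family, 11 were tested, 6 had differences above 0, as 53.5% of all tested genes did, and 5 below, and none passed limma over all genes in either direction; 2 had an unadjusted p under 0.05. The median log2 difference was 0.01, against 0.02 over all tested genes. Slc39a5 (ZIP5), an importer of the basolateral membrane of epithelia, read 297 and 231 in AB6F1, against 8.0 and 26.6 in B6AF1. Both B6AF1 arrays lay below a signal of 60.9, so Slc39a5 passed the filter only through its AB6F1 signal. Neither a size nor a test result is given for its difference. It is counted among the 6 above 0 and the 2 with an unadjusted p under 0.05. Slc39a10 read 240.0 and 426 in AB6F1, against 157 and 153 in B6AF1, a log2 difference of 1.04 ± 0.32 (limma adjusted p = 0.384), and its second probe set gave 0.97. Slc39a2, at -0.76 ± 0.34, and Slc39a9, at 0.30 ± 0.13, both had limma adjusted p of 0.529.

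Of the other 8 exporters of the Slc30a family, 6 were tested, with 4 differences above 0 and 2 below. None passed limma over all genes, and none had an unadjusted p under 0.05. Their median log2 difference was 0.11 and their range was -0.04 to 0.39. Slc30a5, which loads zinc into the secretory pathway, was at 0.22 ± 0.13 (limma adjusted p = 0.635). Slc30a4 was at 0.24 ± 0.19, Slc30a3 at 0.39 ± 0.34 and Slc30a9 at -0.04 ± 0.13, with limma adjusted p of 0.725, 0.747 and 0.949.

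**Figure D5:**
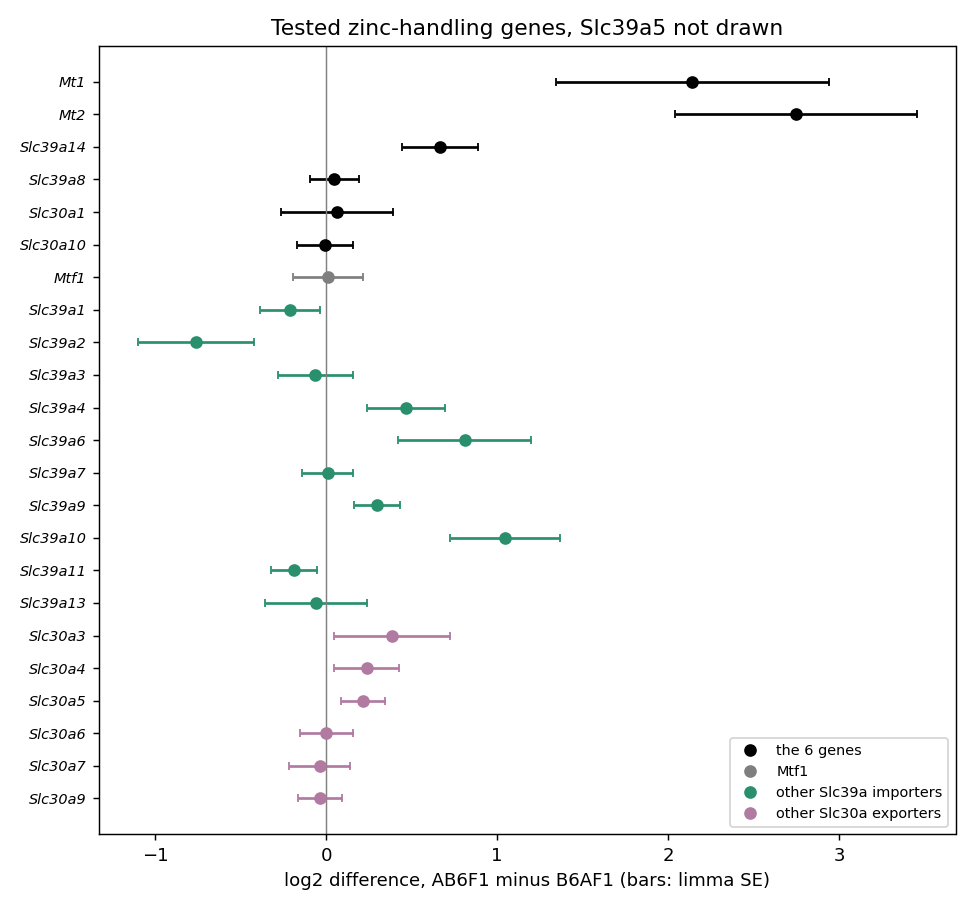
Log2 difference, AB6F1 minus B6AF1 (x axis; bars are limma SE), of the 6 genes and of 17 of the other 18 tested zinc-handling genes (rows). Slc39a5 is not drawn because both its B6AF1 arrays lay below a signal of 60.9; Mt1 and Mt2 stand at 2.14 and 2.75, and 14 of the other genes lie within 0.5 of 0.

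Copper handling genes were set beside the metallothioneins because these proteins also hold copper. All 10 were tested, 7 had differences above 0 and 3 below, with a median of 0.04 on the log2 scale, and none passed limma over all genes. The 1 gene with an unadjusted p under 0.05 was Ccs, the copper chaperone of superoxide dismutase, at -0.27 ± 0.11 (limma adjusted p = 0.501). The copper exporter Atp7a was at 0.55 ± 0.28 (limma adjusted p = 0.580), Atox1 at -0.19 ± 0.14 and Sod1 at 0.15 ± 0.13, with limma adjusted p of 0.705 and 0.762.

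Among 22 genes known to respond to interleukin-6 and STAT3, all of them tested, 2 rose in AB6F1 and none fell. They were the acute-phase gene Saa2, at 2.98 ± 0.25 (log2, limma adjusted p = 0.00828), and Socs3, whose product damps cytokine receptors, at 1.70 ± 0.19 (limma adjusted p = 0.0262). At an unadjusted limma p under 0.05 there were 7, all higher in AB6F1, where 5.84% of all tested genes were. The list was chosen with earlier results of these data known, so nothing is read from that share. The median log2 difference was 0.28, with 16 above 0 and 6 below. Those below 0 were Hamp, Hp, Fga, Fgb, Fgg and Itih4, from -0.16 to -0.03, each with overlapping arrays. Lcn2, whose profile was near that of Mt2, was at 3.26 ± 0.83 (limma adjusted p = 0.299), and Orm2 at 2.61 ± 0.67 (limma adjusted p = 0.301). Orm3 was at 1.89 ± 0.37 and Saa1 at 2.23 ± 0.41, with limma adjusted p of 0.180 and 0.152. Saa2 and Socs3 were both measured by _x_at probe sets, whose probes may cross-hybridise, and none of the 22 passed once _x_at and _s_at probe sets were left out. The count of 2 became 9 without AB6F1 replicate 2 and 0 without B6AF1 replicate 1 or B6AF1 replicate 2. The part of these genes in the metallothionein difference was not tested.

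Glucocorticoid responsive genes had a median below 0. Of 17 listed, 15 were tested, none passed limma over all genes, 4 had an unadjusted p under 0.05, 6 differences were above 0 and 9 below, and the median was -0.14. Besides Lcn2, which both lists hold, Angptl4 was at -0.74 ± 0.23 (limma adjusted p = 0.384), Sgk1 at 0.45 ± 0.16 (limma adjusted p = 0.445) and Hsd11b1, which activates glucocorticoid inside hepatocytes, at -0.28 ± 0.12 (limma adjusted p = 0.513). The established glucocorticoid targets Tsc22d3 and Fkbp5 were at 0.16 ± 0.18 and 0.40 ± 0.23, with overlapping arrays (limma adjusted p = 0.809 and 0.630). Tat and Pck1, of the same list, went the other way, at -0.60 ± 0.28 and -0.19 ± 0.12 (limma adjusted p = 0.544 and 0.652). In both, the AB6F1 arrays lay below the B6AF1 arrays. Without AB6F1 replicate 1 the gene Igfbp1 passed, and without AB6F1 replicate 2 Lcn2 and Tat passed.

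Markers of other liver cells are given beside these results. Of 12 macrophage markers 10 were tested, and Marco and Timd4 were below the filter. Differences were above 0 in 9, as in 53.5% of all tested genes. Macrophage signals summed to 15546 and 9974 in AB6F1, against 6622 and 9151 in B6AF1. The 1 below 0 was Cd163, a scavenger receptor, which read 195 and 219 in AB6F1, against 359 and 389 in B6AF1. Both AB6F1 arrays lay above both B6AF1 arrays in 7 of the 10, as they did in 22.5% of all tested genes. The marker lists were chosen with earlier results of these data known, so nothing is read from such shares. The crosses overlapped in Clec4f and Vsig4. Timd4, not tested, read 41.5 and 34 in AB6F1, against 66.2 and 116 in B6AF1. The macrophage sums had the same order of livers as Mt1 and Mt2, but not every marker did. Clec4f read 1341 and 826 in AB6F1, against 700 and 1063 in B6AF1. Vsig4 read 1392 and 842 in AB6F1, against 578 and 1035 in B6AF1. Without Csf1r, the brightest of these markers, the sums were 10140 and 6470 in AB6F1, against 4062 and 5851 in B6AF1. Of 10 stellate cell and fibroblast markers, all tested, 9 were above 0, as 53.5% of all tested genes were. Both AB6F1 arrays lay above both B6AF1 arrays in 8 of the 10. The collagen genes Col3a1 and Col1a2 were the 2 that passed limma with a higher AB6F1 level, as 0.136% of all tested genes did. Stellate cell and fibroblast signals summed to 14712 and 17761 in AB6F1, against 11264 and 10616 in B6AF1. Of 9 neutrophil markers 5 were tested and 3 were above 0, with summed signals of 1392 and 519 in AB6F1, against 514 and 352 in B6AF1. Without S100a8 and S100a9, the pair whose arrays did not overlap between the crosses, the sums were 385 and 301 in AB6F1, against 367 and 289 in B6AF1. Of the remaining neutrophil markers Elane was at 0.42, Mpo at -0.28 and Ngp at -0.11 on the log2 scale, each with overlapping arrays. Hepatocyte markers, 10 of 12 tested, had 1 difference above 0 and 9 below, with a median of -0.11. The part of these cells in the metallothionein and Slc39a14 differences was not tested.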

How the data were processed

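Per the labels' protocols, RNA of 4 livers was extracted with Trizol, labelled with biotin as cRNA and hybridised. The deposited values are linear MAS5 signal intensity, per the submitters' processing notes; the MAS5 version and any genome build are not given in the sources used here. Detection calls and scanner files were not used here. The trimmed mean, without the lowest and highest 2% of probe sets, was 500 on every array. Of 45101 probe sets, 64 were controls, 34945 had 1 gene symbol in the platform annotation, 932 several and 9160 none, and the last 2 kinds were left unnamed. Gene identifiers of 34741 probe sets matched the RefSeq table of GRCm38.p6, which gave their current symbols. Each gene is represented by its brightest probe set, and genes dimmer on average than the median probe set, which had a signal of 60.9, were not tested.

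Log2 signals, without a pseudocount, were fitted with limma 3.58.1 in R 4.3.3 (lmFit, eBayes with an intensity trend, 4.97 prior and 2 residual degrees of freedom); tests are two-sided with Benjamini-Hochberg adjustment over all tested genes. The labels number the mice as biological replicates. The fit was also run on data simulated from its own model, which cannot show how well that model describes these arrays. The members and the gene lists were chosen with earlier results of these data known. Named genes are all members, the 4 (or fewer) genes with the smallest p in each of 6 lists, and any list gene that passed. The 5 nearest profiles of Mt1 and of Mt2, and Alb, are named too. Other genes with values (Mt3, Mt4, Tsc22d3, Fkbp5, Tat, Pck1, Cd163, Elane, Mpo, Ngp, Alas2) were chosen after their values were seen. So were Timd4, Clec4f, Vsig4, Hamp, Hp, Fga, Fgb, Fgg and Itih4, and the marker sums without Csf1r or S100a8 and S100a9. Of 9 marker lists, the endothelial, lymphocyte, cholangiocyte, erythroid and acinar ones are summarised in the closing section.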

Additional observations from a re-analysis of the deposited data

How the results depend on the processing

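The alternatives were 3 normalizations, an offset of 16, 2 other filters, 2 probe set choices, 2 variance moderations, the replicate number as a block and each array left out. Leaving out _x_at and _s_at probe sets left no tested probe set of Mt1. Outside the left-out arrays the log2 differences of Mt1, Mt2 and Slc39a14 ran from 2.004 to 2.17, from 2.61 to 2.75 and from 0.53 to 0.68. Median centring moved the median of all genes by -0.14 on the log2 scale. The count of genes past the threshold, 25, was 50 after median centring and 0 without the trend (1044 at an unadjusted p under 0.05), and it ran from 0 without B6AF1 replicate 1 and 1 without B6AF1 replicate 2 to 69 without AB6F1 replicate 1 and 246 without AB6F1 replicate 2. The 2 interleukin-6 and STAT3 responsive genes became 0 without _x_at and _s_at probe sets and 0 without the trend, and ran from 0 to 9 with an array left out; glucocorticoid responsive genes ran from 0 to 2. The 2 stellate cell and fibroblast markers became 1 after quantile normalization and 0 without the trend. The leave-one-out ranges of the differences were 1.05 to 3.23 for Mt1, 1.78 to 3.71 for Mt2, 0.33 to 1.002 for Slc39a14, -0.10 to 0.19 for Slc39a8, -0.40 to 0.53 for Slc30a1 and -0.18 to 0.16 for Slc30a10. With the replicate number as a block 62 genes passed. Deviations of same-numbered arrays correlated at -0.03 across genes. Whether same-numbered mice shared any handling cannot be told from that value. The causes were not tested. Without detection calls, signals below 60.9 set no size for a difference.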

Other observations

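The other marker lists read as follows. The median log2 difference of 9 tested endothelial markers was 0.28, that of 5 lymphocyte markers 0.15, of 3 cholangiocyte markers 0.42 and of 2 pancreatic acinar markers 0.15. The erythroid marker Alas2, the single one tested of its list, was at 0.03 ± 0.22. None of these genes passed limma over all genes, and Lyve1 and Cdh5 of the endothelial list had an unadjusted p under 0.05.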
